A study of Arabidopsis with 12 samples.

Results

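The change in gene expression between control and 3 days after heat was compared between wild-type Arabidopsis seedlings (WT) and the double mutant mac3a3b (mutant). For each gene, the response is the log2 fold change of TPM + 1 from control to 3 days within a genotype, and the difference is the mutant response minus the WT response. TPM is the share of a library taken by a gene, corrected for transcript length. Of the 37825 genes in the deposited table, all 22462 with at least 1 TPM in at least 3 of the 12 libraries were tested and sorted by how the mutant response compared with that of WT.

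The seedlings were grown on diluted MS medium with 1.2% sucrose, and the protocol gives a heat treatment at 37 °C for part of the material. Each genotype was sampled at both points with 3 libraries, which gave 4 groups. The mutant libraries carry the code DM, read here as mac3a3b, which the series text names. The alleles, the accession, the age of the plants and the duration of heat are not stated in the labels. The titles call the first sampling point control, whereas the series text places it 0 hours after the end of heat, so these seedlings may never have been heated or may have just come out of heat. No unheated sample was taken at 3 days, and age, growth and the hour of sampling therefore cannot be told apart from recovery after heat, in either genotype or in their difference. Whether libraries of a group came from separate cultures is not labelled, and the p-values then rest on a spread that may be technical.

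MAC3A and MAC3B are a pair of plant homologues of the yeast splicing factor Prp19, a ubiquitin ligase of the complex that associates with the activated spliceosome. In plants this complex is known as the MOS4-associated complex (MAC), and it acts in pre-mRNA splicing, microRNA production and immunity. Heat induces chaperones through heat shock transcription factors, misfolded proteins in the endoplasmic reticulum (ER) induce a separate set through bZIP factors, and damaged proteins and organelles are removed by the proteasome and by autophagy. Recovery from heat also involves rebuilding the photosynthetic apparatus and regaining growth.

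Between 19565 and 19810 genes reached 1 TPM in the mutant control libraries and 19616 to 19678 in those of WT. At 3 days the number was 20963 to 21139 in WT and 18310 to 18713 in the mutant. Ribosomal RNA loci took 5836 to 8110 TPM in the control libraries of both genotypes, 12879 to 14239 in WT 3 days and 35408 to 41121 in mutant 3 days. Organelle-encoded loci took 2265 to 3187, 20987 to 23347 and 15464 to 18701 TPM in the same order. With those loci left out and the libraries rescaled, 96.0% of the shared genes stayed in their class. Libraries of a group correlated at r of 0.982 to 0.989. All 10 root, all 9 guard cell lineage and all 11 vascular marker genes were among the genes tested, against 3 of 9 seed markers. In whole seedlings, fewer cells of a type and less RNA per cell cannot be told apart.

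Transcripts of both targeted genes were low in all mutant libraries. MAC3A was at 33.4, 34.9 and 35.8 TPM in WT control and 59.5, 61.5 and 60.1 at 3 days, against 10.3, 9.14 and 9.77 in mutant control and 5.6, 6.81 and 5.95 at 3 days. The MAC3A response was 0.78 in WT and -0.60 in the mutant (sorted as a weaker rise after quantile normalization), a difference of -1.38 ± 0.094 (SE; limma, adjusted p = 9.7e-08). MAC3B was at 76.2, 71.8 and 69.7 TPM in WT control and 128, 137 and 135 at 3 days, against 9.89, 10.6 and 10.7 in mutant control and 9.74, 8.77 and 9.81 at 3 days. No mutant library reached a WT library for either gene. The MAC3B difference was -0.99 ± 0.078, with a called rise of 0.87 in WT and an uncalled response of -0.12 in the mutant.

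The 3 day response was called in 18271 genes (81.3%) in WT and in 19295 (85.9%) in the mutant, and it differed between the genotypes in most genes. The difference was called in 17277 of 22462 genes (76.9%) by limma at a Benjamini-Hochberg adjusted p under 0.05, and 4620 genes (20.6%) were higher and 12657 (56.3%) lower in the mutant. The median difference over all genes tested was -0.55, with a median response of 0.39 in WT and -0.13 in the mutant. After median-of-ratios scaling of the libraries the median difference was -0.03 and the split became 8262 higher against 8491 lower. After quantile normalization it was 0.04, with 8319 higher and 7800 lower. The direction of small differences therefore depends on the scaling, and medians of gene lists are set against the all-gene median below. The responses were wider in the mutant: the lower and upper quartiles of the genes were -0.32 and 1.05 in WT and -1.27 and 0.87 in the mutant.

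The classes follow from the calls, so their sizes and medians are descriptions with no test of their own. A response was sorted as weaker where the difference and the WT response were called and the mutant response had the same sign and was smaller, or was not called. It was sorted as stronger where the difference and the mutant response were called and the WT response had the same sign and was smaller, or was not called. Opposite responses were called in both genotypes with different signs, and same responses were called in both with one sign and no called difference. Stronger responses formed the largest class, with 9201 genes (41.0%), of which 5637 (25.1%) fell and 3564 (15.9%) rose in the mutant. Weaker responses were found in 4731 genes (21.1%), 4046 (18.0%) that rose and 685 (3.05%) that fell in WT. Opposite responses were found in 3284 genes (14.6%), with 2926 (13.0%) that rose in WT and fell in the mutant and 358 (1.59%) that did the reverse. Same responses were found in 3546 genes (15.8%), 2309 (10.3%) up and 1237 (5.51%) down, and the remaining 1700 genes (7.57%) had no such pattern of calls. Within the weaker class, 1882 genes had no called response in the mutant, and within the stronger class 2824 had none in WT.

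**Figure D1:**
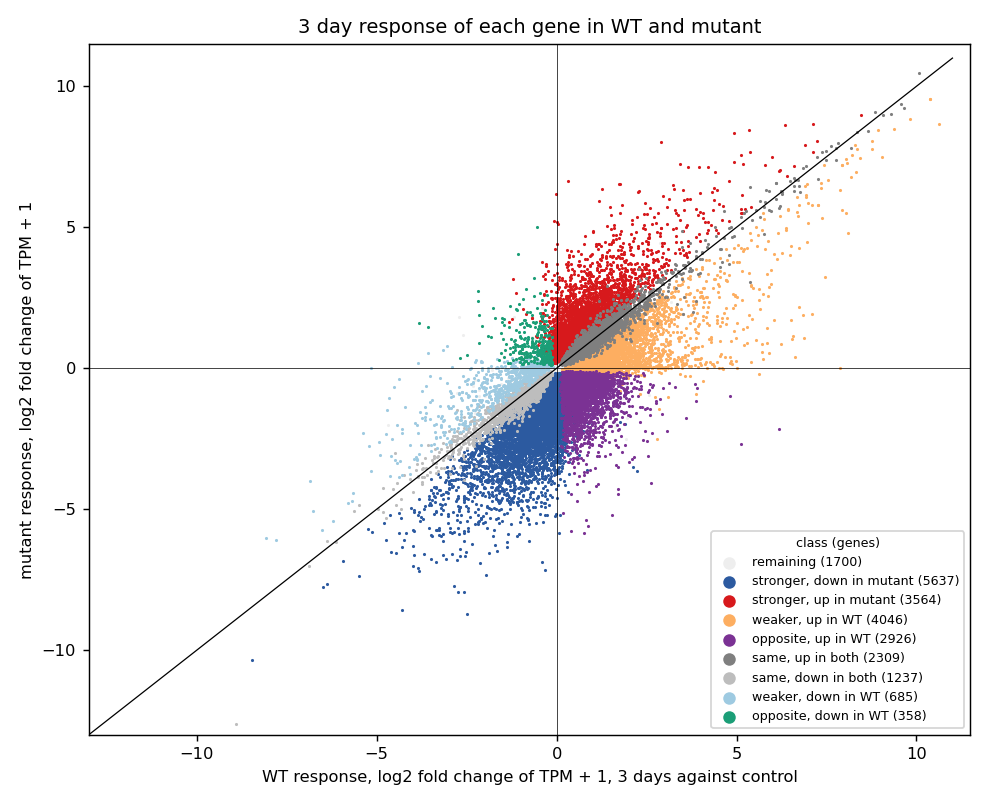
The response of each of the 22462 genes in WT (horizontal axis) and in the mutant (vertical axis), as log2 fold change of TPM + 1 from control to 3 days, coloured by class, with the line of equal responses. The cloud reaches further below the line than above it, and genes in the lower right part rose in WT and fell in the mutant.

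Class membership was held by 9911 of the 22462 genes under all 3 scalings, TPM as deposited, median-of-ratios and quantile normalization. The share was 80.08% of the genes with a stronger rise in the mutant, 52.55% of those with a stronger fall, 81.56% of those that fell in WT and rose in the mutant and 75.62% of those with a weaker fall. It was 31.74% for the weaker rise, 28.61% for the rise in WT with a fall in the mutant, 23.85% for the same fall and 8.185% for the same rise. With median-of-ratios scaling the class that rose in WT and fell in the mutant held 1182 genes and its reverse 1337, so the excess of the former over the latter was found on the TPM scale and not after that scaling.

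**Figure D2:**
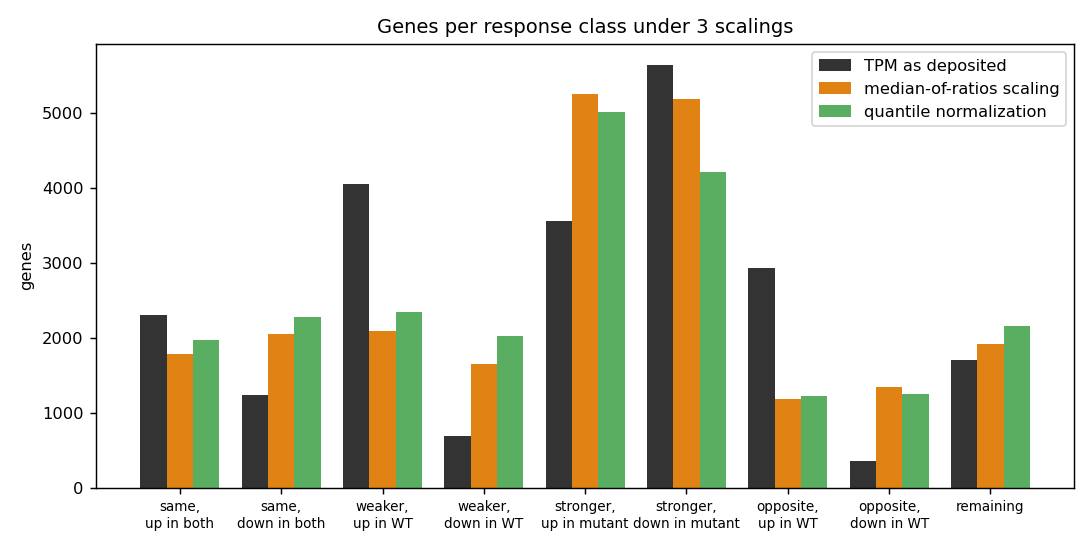
Number of genes (vertical axis) in each response class with TPM as deposited, after median-of-ratios scaling and after quantile normalization. The stronger fall was the largest class with TPM and the stronger rise with the other scalings, and the weaker rise and the rise in WT with a fall in the mutant were largest with TPM.

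Genes that rose in WT and fell in the mutant included the pigment, starch and xylem genes of the largest differences. GBSS1, the granule-bound starch synthase that makes amylose, was at 19.9, 21.4 and 21.6 TPM in WT control and 58.3, 61.1 and 68.3 at 3 days, against 86.6, 88.9 and 94.2 in mutant control and 1.3, 1.32 and 1.72 at 3 days. The response of GBSS1 was 1.53 in WT and -5.22 in the mutant, a difference of -6.75 ± 0.11 (limma, adjusted p = 1.81e-11). DFR, which makes the leucoanthocyanidin precursors of anthocyanin, was at 4.29, 5.09 and 4.31 TPM in WT control and 9.11, 8.32 and 7.63 at 3 days, against 55.0, 60.2 and 64.7 in mutant control and 0.1, 0 and 0.05 at 3 days. All mutant control libraries stood above, and all mutant 3 days libraries below, every WT library of DFR. Its mutant level was thus 3.45 log2 units higher than WT at control and -3.15 at 3 days, and the difference of -6.61 ± 0.13 holds both. LDOX, the next enzyme of the pathway, had the same order of groups, at 6.49 TPM in WT control and 12.3 at 3 days, against 52.8 in mutant control and 0.31 at 3 days, and a difference of -6.20 ± 0.24. TLL1, a triacylglycerol lipase-like gene, was at 106 TPM in WT control and 194 at 3 days, against 246 in mutant control and 4.15 at 3 days, with a difference of -6.49 ± 0.19. The gene scpl10, a serine carboxypeptidase-like acyltransferase, was at 8.1, 8.76 and 8.88 TPM in WT control and 46.8, 55.3 and 63.5 at 3 days, against 60.9, 59.3 and 54.7 in mutant control and 7.08, 5.5 and 5.22 at 3 days. Its mutant 3 days libraries overlapped none of the mutant control libraries, and its difference was -5.65 ± 0.16. Each of these genes kept its class under all 3 scalings.

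Most anthocyanin and flavonoid genes moved in opposite directions between the genotypes. Of 17 members tested, the difference was lower in 16 and higher in 1, under TPM as well as after median-of-ratios scaling. Under TPM 12 rose in WT and fell in the mutant and 4 had a stronger fall in the mutant. After median-of-ratios scaling these counts were 9 and 7, with a median WT response of 0.36. In WT the median response was 0.75 and in the mutant -2.69, and the median difference of -3.25 lay 2.70 below that of all genes. The regulator MYB75 (PAP1) was at 1.21, 1.12 and 0.83 TPM in WT control and 31.0, 27.0 and 29.2 at 3 days, against 7.3, 9.61 and 10.4 in mutant control and 5.98, 2.87 and 2.27 at 3 days. Its WT 3 days libraries were the highest and its WT control libraries the lowest, and the difference was -5.05 ± 0.33. TT4, chalcone synthase, the first enzyme of the pathway, was at 57.0 TPM in WT control and 267 at 3 days, against 166 in mutant control and 103 at 3 days, with a difference of -2.90 ± 0.13. UF3GT, which adds a sugar to anthocyanin, went from 9.70 TPM in mutant control to 0 in all mutant 3 days libraries, and from 0.997 to 5.33 in WT. The repressor MYBL2 was the exception, at 117 TPM in WT control and 1.36 at 3 days, against 48.8 in mutant control and 1.32 at 3 days, a fall in both genotypes that was smaller in the mutant by 1.23 ± 0.16. At control the median level of the list was 1.23 log2 units higher in the mutant than in WT, and at 3 days 2.14 log2 units lower (median difference of mutant and WT, -2.14). These values and the difference share the same libraries.

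Part of the xylem and phloem genes showed a similar pattern. All 11 vascular markers had a lower difference, 7 of them with a rise in WT and a fall in the mutant and 4 with a stronger fall in the mutant. After median-of-ratios scaling these counts were 5 and 6. Medians of the responses were 0.68 in WT and -2.23 in the mutant. Their median difference of -2.88 lay 2.33 below that of all genes. XCP2, a protease of xylem cell death, was at 60.7, 63.3 and 51.0 TPM in WT control and 259.9, 254 and 197 at 3 days, against 89.8, 78.9 and 95.9 in mutant control and 8.21, 7.7 and 7.65 at 3 days. Its highest libraries were those of WT 3 days and its lowest those of mutant 3 days, with no overlap between groups, and the difference was -5.33 ± 0.16. CESA8, a cellulose synthase of the secondary wall, was at 5.29 TPM in WT control and 11.7 at 3 days, against 6.65 in mutant control and 0.64 at 3 days, with a difference of -3.25 ± 0.16. The phloem sucrose transporter SUC2 fell in both genotypes, from 77.0 to 19.8 TPM in WT and from 54.3 to 5.51 in the mutant, a difference of -1.19 ± 0.17. The 11 markers summed to 228.9 to 248.9 TPM in WT control and 343.6 to 425.6 at 3 days, against 230.5 to 259.8 in mutant control and 28.41 to 30.76 at 3 days, and the part of tissue proportions in the other results was not tested.

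**Figure D3:**
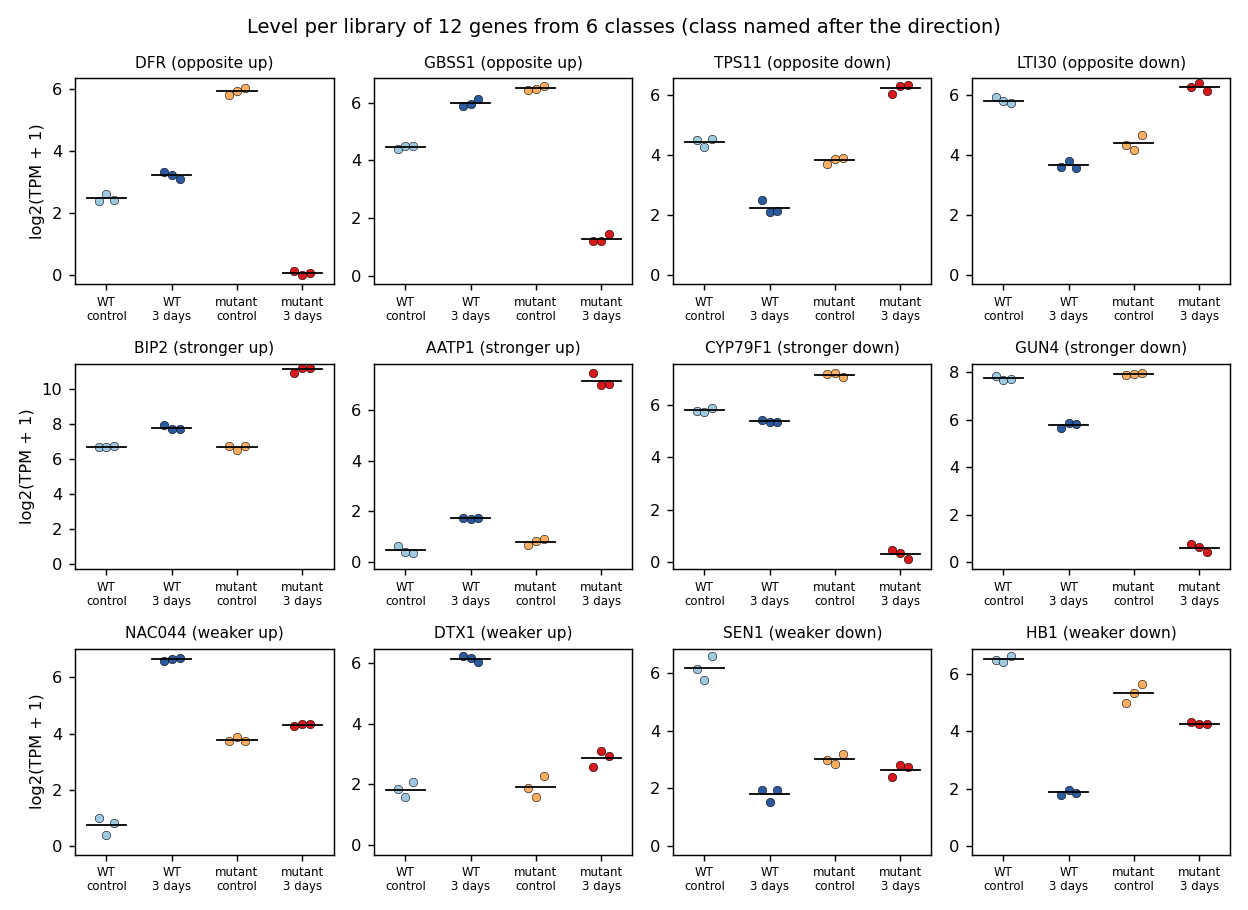
Levels of 12 genes, 2 from each of 6 classes, as log2(TPM + 1) in every library (points) with the group mean (lines). DFR and GBSS1 rose in WT and fell in the mutant, TPS11 and LTI30 did the reverse, and the remaining panels show stronger and weaker responses.

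Genes that fell in WT and rose in the mutant were few, and those with the largest differences were a pair of trehalose phosphate synthase-like genes, a dehydrin, a lipid acyl hydrolase and a purine permease-like gene. TPS11, a trehalose phosphate synthase-like protein of the class that responds to sugar status, was at 21.4, 18.4 and 22.1 TPM in WT control and 4.67, 3.35 and 3.39 at 3 days, against 11.98, 13.7 and 13.8 in mutant control and 64.8, 77.4 and 79.9 at 3 days. Its mutant 3 days libraries were the highest and its WT 3 days libraries the lowest, and the difference was 4.58 ± 0.17 (limma, adjusted p = 8.49e-10). TPS9, of the same family, was at 8.80 TPM in WT control and 4.39 at 3 days, against 5.06 in mutant control and 40.6 at 3 days, with a difference of 3.66 ± 0.2. The dehydrin LTI30 was at 60.4, 54.5 and 52.4 TPM in WT control and 11.3, 12.9 and 11.1 at 3 days, against 19.4, 17.1 and 24.8 in mutant control and 75.7, 84.8 and 70.1 at 3 days. The WT control and mutant 3 days libraries of LTI30 were the high ones, and the difference was 4.03 ± 0.17. PLA2A, a patatin-like lipid acyl hydrolase, was at 6.07 TPM in WT control and 1.08 at 3 days, against 0.3 in mutant control and 4.75 at 3 days, with a difference of 3.92 ± 0.26. PUP18, a purine permease-like gene, was at 46.7 TPM in WT control and 18.7 at 3 days, against 15.3 in mutant control and 74.9 at 3 days, with a difference of 3.50 ± 0.23. All 5 kept their class under the 3 scalings.

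Among 13 genes induced by carbon starvation, the difference was higher in 11 and lower in 1, against 20.6% of all genes higher. Of these 13, 5 fell more weakly in the mutant, 4 fell in WT and rose in the mutant and 2 had a stronger rise in the mutant. Members had a median response of -1.54 in WT and 0.03 in the mutant. Their median difference of 1.69 lay 2.24 above that of all genes. DIN10, a raffinose synthase-like gene, went from 156 to 52.8 TPM in WT and from 33.6 to 80.3 in the mutant. DIN2, a beta-glucosidase, was at 0.45 TPM in WT control and 0.153 at 3 days, against 0.427 in mutant control and 13.6 at 3 days. DIN2 may have passed the filter of 1 TPM through the mutant 3 days libraries alone, so its direction is no support by itself. The exception was DIN4, a subunit of branched-chain keto acid dehydrogenase, with a difference of -1.53 ± 0.14. The list was already lower in the mutant at control, by a median of -1.01, and higher at 3 days, by 0.84.

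A stronger rise in the mutant was found for many ER chaperone and proteasome genes and for part of the autophagy genes. AATP1, an AAA-type ATPase, was at 0.55, 0.32 and 0.28 TPM in WT control and 2.29, 2.27 and 2.36 at 3 days, against 0.61, 0.78 and 0.85 in mutant control and 178, 126 and 128 at 3 days. The mutant 3 days libraries stood apart from all others, and the response was 1.26 in WT and 6.36 in the mutant (difference 5.10 ± 0.19, limma, adjusted p = 8.22e-10). PP2-B11, an F-box protein with a phloem lectin domain, was at 1.89 TPM in WT control and 8.78 at 3 days, against 1.48 in mutant control and 229 at 3 days, with a difference of 4.78 ± 0.13. CYP89A9, a cytochrome P450 of chlorophyll breakdown, was at 5.97 TPM in WT control and 32.1 at 3 days, against 3.81 in mutant control and 362 at 3 days, with a difference of 3.98 ± 0.19. MSS1, the hexose symporter also called STP13, was at 15.67, 12.3 and 14.9 TPM in WT control and 14.3, 9.46 and 8.63 at 3 days, against 7.92, 5.61 and 7.96 in mutant control and 96.4, 115 and 115 at 3 days. Its WT response of -0.40 was not called and its mutant response of 3.76 was, and after median-of-ratios and quantile scaling it fell in WT and rose in the mutant. U1.7, a U1 spliceosomal RNA, was listed at 0, 32.9 and 0 TPM in WT control and 19.5, 0 and 18.6 at 3 days, against 0, 0 and 0 in mutant control and 42.8, 60.6 and 81.9 at 3 days. With libraries at 0 in 3 of the groups it gives no fold. Its difference was not called with the replicate number as a block (limma, adjusted p = 0.0659) or without WT control 2, WT 3 days 2 or any 1 of the mutant libraries (adjusted p = 0.0536 to 0.0908), and it lacks the poly(A) tail for which the libraries were enriched.

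The unfolded protein response of the ER rose far more in the mutant. Of 18 genes, the difference was higher in 15 and lower in 1, and 15 had a stronger rise in the mutant. In WT the median response was 1.05 and in the mutant 2.85, the median difference of 1.98 lay 2.53 above that of all genes, and the genotypes differed by a median of 0.03 at control. BIP2, the ER-resident HSP70, was at 102, 101 and 103 TPM in WT control and 239, 207 and 209.7 at 3 days, against 106, 91.1 and 107 in mutant control and 1907, 2344 and 2333 at 3 days. The control groups overlapped, WT 3 days was higher and mutant 3 days stood apart, which gave a difference of 3.34 ± 0.13. Reads of the near-identical copies BIP1 and BIP2 may have been divided between them, and BIP1 had a difference of 2.18 ± 0.1. PDIL1-1, a protein disulfide isomerase, was at 104 TPM in WT control and 104 at 3 days, against 64.3 in mutant control and 516 at 3 days, with a rise in the mutant, no called response in WT (a fall after median-of-ratios scaling) and a difference of 2.97 ± 0.087. Among the sensors and transcription factors, BZIP28 had a difference of 1.97 ± 0.064 and BZIP60 of 0.64 ± 0.083. IRE1A and IRE1B rose in both genotypes with no called difference under TPM (95% intervals -0.06 to 0.31 and -0.34 to 0.03). Both had a stronger rise in the mutant after median-of-ratios scaling (differences 0.75 and 0.44). CRT3, a calreticulin of the plant-specific branch, was the 1 member with a lower difference, -0.51 ± 0.076, which after median-of-ratios scaling was 0.12 and no longer called.

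Of 15 autophagy genes, the difference was higher in 13 and lower in 1, against 20.6% and 56.3% of all genes, with a median response of 1.03 in WT and 1.82 in the mutant and a median difference of 0.75, which lay 1.3 above that of all genes. ATG8D, a ubiquitin-like protein that coats the autophagosome, was at 16.8, 17.5 and 21.1 TPM in WT control and 119, 109 and 105 at 3 days, against 24.8, 26.8 and 23.3 in mutant control and 592, 542 and 613 at 3 days. Its WT 3 days and mutant 3 days libraries were all above the controls and did not overlap, and the difference was 1.96 ± 0.12. ATG8E of the same family fell in WT and rose in the mutant, at 122 TPM in WT control and 43.5 at 3 days, against 91.4 in mutant control and 122 at 3 days. NBR1, a receptor for ubiquitylated cargo, had a difference of 1.54 ± 0.086. ATG5, with a difference of -0.28 ± 0.077, turned to 0.33 after median-of-ratios scaling. In the table's KEGG annotation, 50 of 80 proteasome genes (62.5%) had a stronger rise in the mutant, against 15.9% of all genes, as did 18 of 41 genes (43.9%) of vesicle fusion by SNAREs and 126 of 339 (37.2%) of ER protein processing. The median proteasome response was 0.72 in WT and 1.21 in the mutant. Within ER protein processing the difference was higher in 142 genes and lower in 125, with a median of 0.05. After median-of-ratios scaling these counts were 212 and 70. The wider KEGG set of 83 autophagy genes was mixed: 27 (32.5%) had a stronger rise in the mutant, while the difference was higher in 29 and lower in 41 under TPM, with a median of -0.18, and higher in 51 and lower in 18 after median-of-ratios scaling.

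Part of the salicylic acid genes rose more in the mutant. The difference was higher in 7 of 14 and lower in 1, against 20.6% and 56.3% of all genes. The median difference was 0.60, or 1.15 above that of all genes, and after median-of-ratios scaling 12 were higher. PR1, an antimicrobial marker of this pathway, was at 0, 0 and 0.08 TPM in WT control and 0.55, 0.25 and 0.26 at 3 days, against 0, 0 and 0 in mutant control and 34.4, 10.2 and 13.7 at 3 days. It was detected at over 1 TPM in the mutant 3 days libraries alone, and WT had no called response. PR1 thus passed the filter through that group alone, and its call is no support for a direction by itself. PBS3, an enzyme of salicylic acid synthesis, was at 0.313 TPM in WT control and 0.767 at 3 days, against 0.68 in mutant control and 15.8 at 3 days, with a difference of 2.90 ± 0.28. Its means outside mutant 3 days were under 1 TPM, so it may have passed the filter through that group alone. SARD1, a transcription factor that activates salicylic acid synthesis, was at 0.567 TPM in WT control and 5.85 at 3 days, against 0.65 in mutant control and 36.3 at 3 days. PR2, a glucanase, had a lower difference of -0.89 ± 0.33 from group means under 2 TPM. The PR2 call was lost after quantile normalization (-0.23, limma, adjusted p = 0.546), after median-of-ratios scaling and without any 1 of WT control 2, WT control 3, WT 3 days 2, mutant control 1, mutant 3 days 2 or mutant 3 days 3 (limma, adjusted p = 0.0533 to 0.101).

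A stronger fall in the mutant joined glucosinolate synthesis, chlorophyll synthesis, the light-harvesting antenna and the Calvin cycle. IPMI1, a subunit of the isopropylmalate isomerase that lengthens methionine for aliphatic glucosinolates, was at 57.3, 47.5 and 57.7 TPM in WT control and 46.9, 41.6 and 40.4 at 3 days, against 154, 141 and 144 in mutant control and 0.11, 0 and 0 at 3 days. All mutant 3 days libraries of IPMI1 were far below the others, and the response was -0.32 in WT and -7.15 in the mutant (difference -6.83 ± 0.12, limma, adjusted p = 2.28e-11). CYP79F1, which starts the core pathway, was at 53.8, 52.5 and 58.04 TPM in WT control and 42.1, 40.1 and 40.0 at 3 days, against 146, 151 and 134 in mutant control and 0.35, 0.26 and 0.08 at 3 days. The mutant was the higher genotype at control and the lower one at 3 days, with no overlap, and the difference was -6.46 ± 0.11. CYP79F1 and its neighbour CYP79F2 are close copies, and reads may have been divided between them, with CYP79F2 at a difference of -5.27 ± 0.19. CYP83A1, the next enzyme, had no called response in WT and a difference of -5.91 ± 0.23. GSTU20, a glutathione S-transferase, was at 536 TPM in WT control and 95.4 at 3 days, against 668 in mutant control and 0.58 at 3 days, with a difference of -6.25 ± 0.099.

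Of 20 glucosinolate genes tested, the difference was lower in 17 and higher in 2. Medians of the responses were 0.08 in WT and -3.19 in the mutant. Their median difference of -3.00 lay 2.45 below that of all genes. The 2 members with a higher difference were CYP83B1 of the indole branch (0.52 ± 0.18) and MYB51, the regulator of that branch (0.50 ± 0.16). The CYP83B1 call was lost without WT control 1 or without mutant control 2 (limma, adjusted p = 0.0524 and 0.0521). MYB29, a regulator of the aliphatic branch, was at 17.55 TPM in WT control and 26.48 at 3 days, against 27.5 in mutant control and 0.0967 at 3 days, and MYB28, its close relative, had a smaller difference of -1.72 ± 0.19. The list stood a median of 0.73 higher in the mutant at control and differed by -2.29 at 3 days.

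GUN4, which activates magnesium chelatase in chlorophyll synthesis, was at 228, 205 and 211 TPM in WT control and 50.3, 57.3 and 56.5 at 3 days, against 234, 245 and 254 in mutant control and 0.7, 0.55 and 0.35 at 3 days. The control groups lay close together, WT 3 days was lower and mutant 3 days lower still, with a difference of -5.37 ± 0.12. Of 13 chlorophyll synthesis genes, 12 had a stronger fall in the mutant, with a median response of -1.37 in WT and -3.06 in the mutant and a median difference 1.31 below that of all genes. PORA, a protochlorophyllide reductase of dark-grown seedlings, was the exception with a weaker fall, at 12.5 TPM in WT control and 0.183 at 3 days, against 2.92 in mutant control and 0.107 at 3 days. Of 20 light-harvesting antenna genes, 16 had a stronger fall in the mutant and 1 a weaker fall. The median response of the antenna was -2.90 in WT and -5.27 in the mutant. LHCA4, a photosystem I antenna protein, was at 7759, 7859.8 and 7316 TPM in WT control and 764, 853 and 969.7 at 3 days, against 7749.6, 7494 and 7289.8 in mutant control and 74.6, 74.5 and 76.3 at 3 days. Its groups did not overlap between control and 3 days or between the genotypes at 3 days, and the difference was -3.47 ± 0.11. The LHCB1 copies are near-identical and the division of their reads is uncertain: LHCB1.1 had a difference of -4.28 ± 0.2 and LHCB1.4 of 1.71 ± 0.22. LHCA2, of photosystem I, fell in both genotypes (-2.47 in WT and -2.43 in the mutant), with a 95% interval of the difference from -0.29 to 0.38 under TPM and a weaker fall in the mutant after median-of-ratios scaling.

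The difference was lower in 11 of 13 Calvin cycle genes, with a median 1.16 below that of all genes. FBA1, a chloroplast aldolase, was at 424 TPM in WT control and 510.3 at 3 days, against 1033 in mutant control and 219.8 at 3 days, a rise in WT and a fall in the mutant under TPM that after median-of-ratios scaling was a stronger fall in the mutant. Rubisco small subunit genes were split, with RBCS1B at a difference of -2.45 ± 0.2 and RBCS1A, the most abundant, at -0.30 ± 0.18, which was not called. All 10 iron deficiency genes had a stronger fall in the mutant under TPM, and after median-of-ratios scaling 8 had a stronger and 2 the same fall. The iron transporter IRT1 was at 32.3, 27.9 and 23.3 TPM in WT control and 0.1, 0.13 and 0 at 3 days, against 144, 69.5 and 128 in mutant control and 0.88, 0.31 and 0.65 at 3 days. It was highest in mutant control, and at 3 days it was near 0 in both genotypes. Its difference of -1.37 ± 0.33 rests on the pseudocount, since it was 0.04 with a pseudocount of 0.1 (limma, adjusted p = 0.955). The median level of the iron list was 1.42 higher in the mutant at control and differed by -0.10 at 3 days. BHLH38, a regulator of iron uptake, was at 1.61 TPM in WT control and 0.293 at 3 days, against 12.4 in mutant control and 0.0733 at 3 days. In the KEGG annotation the largest shares of a stronger fall were 17 of 26 antenna genes (65.4%), 45 of 86 porphyrin genes (52.3%) and 31 of 61 carotenoid genes (50.8%), against 25.1% of all genes. Next, with 50% each, were 17 of 34 brassinosteroid, 10 of 20 C5-branched dibasic acid and 13 of 26 isoquinoline alkaloid genes.

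A weaker rise in the mutant was found for the DNA damage factor NAC044, the silenced gene SDC and part of the ribosome biogenesis and DNA replication genes. NAC044, a transcription factor that arrests the cell cycle after DNA damage, was at 1.02, 0.33 and 0.75 TPM in WT control and 95.2, 99.2 and 103 at 3 days, against 12.3, 13.8 and 12.4 in mutant control and 18.3, 19.3 and 19.2 at 3 days. WT went from the lowest to the highest level, whereas both mutant groups stood between them, and the response was 5.90 in WT and 0.53 in the mutant (difference -5.37 ± 0.17, limma, adjusted p = 3.58e-10). SDC, an F-box gene silenced by DNA methylation in wild-type leaves, was at 0.04, 0.07 and 0.22 TPM in WT control and 10.1, 10.5 and 12.1 at 3 days, against 0.26, 0.52 and 0.37 in mutant control and 0.09, 0.24 and 0.23 at 3 days. It rose in WT, and the mutant had no called response, a difference of -3.64 ± 0.16. SDC passed the filter of 1 TPM through the WT 3 days libraries alone, so its direction is no support by itself. BAM5, a beta-amylase outside the chloroplast, was at 0.42 TPM in WT control and 43.9 at 3 days, against 0.203 in mutant control and 1.57 at 3 days, with a difference of -3.92 ± 0.26. LTP3, a lipid transfer protein, had a difference of -3.44 ± 0.27, and DTX1, a membrane efflux carrier, of -3.36 ± 0.26. Each of these 5 kept its class under the 3 scalings.

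Of 14 DNA damage response genes, the difference was lower in 12 and higher in 1, against 56.3% and 20.6% of all genes. Members had a median response of 1.24 in WT and -0.45 in the mutant. Their median difference of -1.51 lay 0.96 below that of all genes. GMI1, a structural maintenance of chromosomes-like repair protein, was at 1.22, 1.18 and 1.22 TPM in WT control and 10.9, 12.4 and 13.6 at 3 days, against 12.3, 13.4 and 13.5 in mutant control and 3.62, 3.08 and 3.65 at 3 days. WT 3 days and mutant control were the high groups and their libraries overlapped, so the 2 genotypes started at different levels, and the difference was -4.25 ± 0.12. SOG1, the transcription factor that controls many of these genes, was at 8.54 TPM in WT control and 8.73 at 3 days, against 8.90 in mutant control and 12.3 at 3 days, and was the 1 member with a higher difference, 0.39 ± 0.11. SMR5, a cyclin-dependent kinase inhibitor, rose in both genotypes, at 0.43 TPM in WT control and 29.1 at 3 days, against 0.327 in mutant control and 41.4 at 3 days, with no called difference.

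The difference was lower in 17 of 20 cell cycle and replication genes and higher in 1, against 56.3% and 20.6% of all genes. Its median of -1.16 lay 0.61 below that of all genes. After median-of-ratios scaling 14 were lower and 4 higher. MCM4 and MCM6, of the replicative helicase, rose in WT with no called mutant response (differences -2.02 ± 0.1 and -1.33 ± 0.12), and MCM2 rose in WT and fell in the mutant (-1.90 ± 0.11). CYCD3;1, a cyclin of division onset, was at 22.7, 25.1 and 25.5 TPM in WT control and 42.6, 47.8 and 44.3 at 3 days, against 24.1, 24.9 and 25.9 in mutant control and 2.11, 1.82 and 2.24 at 3 days. WT 3 days was the highest group and mutant 3 days the lowest, and the difference was -3.94 ± 0.099. MCM5 had a difference of -2.96 ± 0.12, at 16.7 TPM in WT control and 1099 at 3 days, against 21.1 in mutant control and 174 at 3 days. It lies beside the copy of mitochondrial DNA on chromosome 2, and reads of organelle origin may be counted there, so its level is uncertain. Mitotic genes such as CYCB1;1 fell in both genotypes and more so in the mutant (-1.15 ± 0.18). In the KEGG annotation, 53 of 136 ribosome biogenesis genes (39.0%), 33 of 92 of nucleotide excision repair (35.9%), 19 of 53 of mismatch repair (35.8%) and 20 of 63 of DNA replication (31.7%) had a weaker rise in the mutant, against 18.0% of all genes. After median-of-ratios scaling the same counts were 31 (22.8%), 6 (6.52%), 7 (13.2%) and 10 (15.9%), against 9.29% of all genes, so the share of nucleotide excision repair then lay below that of all genes.

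The summed level of transposable element genes was higher at 3 days than at control in both genotypes, and highest in WT. Of 3845 such genes in the deposited annotation, 431 were tested. Of these, 313 (72.6%) had a weaker rise in the mutant, 44 (10.2%) the same rise and 37 (8.58%) a stronger rise, against 18.0%, 10.3% and 15.9% of all genes. Their summed level was 342.5 to 359.2 TPM in WT control and 6480 to 7292 at 3 days, against 371.1 to 374.0 in mutant control and 3837 to 4220 at 3 days. The 2 groups at 3 days did not overlap, and both stood above the controls. In WT the median response was 2.22 and in the mutant 0.38. The count is no support for a direction by itself, since 214 of the 431 passed the filter through the WT 3 days libraries alone and this set of genes was chosen after its values were seen. Copies of one element family share sequence, and their reads may have been divided between them. Of 13 genes of DNA methylation and silencing, the difference was lower in 8 and higher in 2, near the shares of all genes (56.3% and 20.6%), with a median 0.05 below that of all genes, and after median-of-ratios scaling 5 were lower and 5 higher. CMT2, a DNA methyltransferase of heterochromatin, was at 10.8, 10.9 and 11.1 TPM in WT control and 9.23, 9.8 and 9.78 at 3 days, against 11.2, 10.9 and 11.9 in mutant control and 0.4, 0.53 and 0.48 at 3 days. It was far lowest in the mutant 3 days libraries, with a difference of -2.90 ± 0.094. DDM1, a chromatin remodeller needed for that methylation, rose in WT from 10.4 to 24.7 TPM with no called response in the mutant, a difference of -1.21 ± 0.13. ROS1, which removes DNA methylation, fell in both genotypes, with a difference of 0.35 ± 0.13 that was not called with a pseudocount of 0.1 (0.19, limma, adjusted p = 0.469) or without any 1 of WT control 2, WT 3 days 1, WT 3 days 3, mutant control 1, mutant control 3, mutant 3 days 2 or mutant 3 days 3 (limma, adjusted p = 0.0506 to 0.0761).

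Genes with a weaker fall in the mutant often differed between the genotypes before the 3 day sampling. Of the 685 genes in this class, 75.47% differed between the genotypes at control, against 49.5% of all genes tested, and the median difference of mutant and WT was -0.65 at control and 0.14 at 3 days. The same control libraries sorted the class, which favours genes that are lower in mutant control, so these values are descriptions. SEN1, a dark-induced gene of senescing leaves, was at 71.0, 53.2 and 96.4 TPM in WT control and 2.83, 1.91 and 2.85 at 3 days, against 7.03, 6.25 and 8.17 in mutant control and 4.21, 6.09 and 5.71 at 3 days. WT control was high and the other 3 groups low, and the difference was 4.00 ± 0.28 (limma, adjusted p = 1.41e-07). RbcX1, an assembly chaperone of Rubisco, was at 60.9, 69.9 and 74.8 TPM in WT control and 4.37, 4.56 and 2.81 at 3 days, against 3.42, 3.1 and 3.44 in mutant control and 3.47, 3.5 and 4.83 at 3 days. It was high in WT control alone, and the mutant had no called response (a rise after quantile normalization), a difference of 4.02 ± 0.21. HB1, a haemoglobin that turns over nitric oxide, was at 91.4 TPM in WT control and 2.66 at 3 days, against 39.8 in mutant control and 18.3 at 3 days, falling in both genotypes with a difference of 3.60 ± 0.18. CYP71B22, a cytochrome P450, had a difference of 2.92 ± 0.16, and GSTF2, a glutathione S-transferase with a close copy, of 2.54 ± 0.35. No KEGG pathway had a large share in this class: the highest were 4 of 33 genes of biotin metabolism (12.1%) and 5 of 45 of nitrogen metabolism (11.1%), against 3.05% of all genes.

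The same rise in both genotypes included heat shock transcription factors and part of the chaperones. A missed call does not show equal responses, and 1833 of the 3546 genes in the same class, 1376 that rose and 457 that fell, had a 95% interval of the difference within 0.5 log2 units of 0. HSP70T-2, a truncated HSP70, was at 2.59, 2.35 and 3.01 TPM in WT control and 107, 106 and 100 at 3 days, against 1.9, 2.21 and 2.63 in mutant control and 97.9, 106 and 106 at 3 days. Control and 3 days did not overlap in either genotype, and the difference was 0.16 ± 0.12, with an interval from -0.11 to 0.43. HSP18.5, a small heat shock protein, rose by 4.04 and 3.88. SRO3, a stress-response protein of the RCD family, rose by 6.28 in WT and 6.25 in the mutant, and MAC5C, a zinc finger protein of the MAC, rose by 4.03 and 4.09. SRO3 started at 0.36 TPM in WT control and 4.15 in mutant control, and its difference depended on the pseudocount, at -1.29 with 0.1 and 1.06 with 5 (limma, adjusted p = 0.000493 and 4.52e-06). After median-of-ratios scaling all 4 had a stronger rise in the mutant. The difference of HSP18.5 was called without WT control 1 (-0.20) or without mutant control 2 (-0.21). That of SRO3 was 0.16 without mutant control 2, and that of MAC5C was -0.06 without WT control 3 and -0.08 without mutant control 2, none of them called. The same fall in both genotypes was shown by BZO2H3, a bZIP factor of energy signalling (-3.04 and -2.94), by the photosystem I subunits PSAF (-2.95 and -2.71) and PSAE-1 (-2.61 and -2.50), and by WRI4, a regulator of wax synthesis (-2.70 and -2.48). After median-of-ratios scaling all 4 had a weaker fall in the mutant. The difference of PSAF was called without mutant 3 days 1 (0.34).

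Of 18 heat shock transcription factors tested, 9 had the same rise, and the difference was higher in 4 and lower in 5. The median response was 1.44 in both genotypes, and the median difference of 0.02 lay 0.57 above that of all genes. After median-of-ratios scaling 11 were higher and 2 lower. HSFA2, the main heat-induced activator, was at 0.63, 0.5 and 1.04 TPM in WT control and 71.5, 62.2 and 61.2 at 3 days, against 1.14, 0.59 and 0.71 in mutant control and 80.3, 83.3 and 92.6 at 3 days. Both 3 day groups were far above the controls, the mutant one highest without overlap, and the difference of 0.32 ± 0.19 was not called. HSFA8 rose more in the mutant, at 2.71 TPM in WT control and 12.9 at 3 days, against 0.72 in mutant control and 14.5 at 3 days (1.25 ± 0.23), and HSFB4 fell in the mutant with no called response in WT, at 7.13 TPM in WT control and 7.67 at 3 days, against 9.89 in mutant control and 1.84 at 3 days (-2.03 ± 0.16).

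Of 17 small heat shock proteins, 16 rose in both genotypes, and HSP15.4 fell in both, from 73.5 to 35.7 TPM in WT and from 32.5 to 8.197 in the mutant. The summed level of the 17 genes was 112.2 to 135.5 TPM in WT control and 11830 to 12590 at 3 days, against 107.4 to 118.6 in mutant control and 7657 to 8378 at 3 days. The median response of the 17 genes was 7.23 in WT and 7.5 in the mutant. Their median difference was -0.45, or 0.1 above that of all genes, and 0.14 after median-of-ratios scaling. Their difference was higher in 3 and lower in 8, against 20.6% and 56.3% of all genes, or 6 and 5 after median-of-ratios scaling. HSP14.7 had the most negative difference (-2.83 ± 0.14), and HSP26.5 the most positive (1.26 ± 0.28). HSP23.5, of mitochondria, was at 3.43, 3.64 and 5.85 TPM in WT control and 311, 302 and 284 at 3 days, against 38.6, 32.2 and 34.5 in mutant control and 333, 373 and 386 at 3 days. Both 3 day groups were above the controls, but mutant control was higher than WT control, and the difference was -2.51 ± 0.2. HSP21, of chloroplasts, went from 0.02 to 1629 TPM in WT and from 0.09 to 443 in the mutant, a difference of -1.97 ± 0.23. HSP17.8, of the cytosol, had a stronger rise in the mutant (0.82 ± 0.23). Cytosolic members are close in sequence, and the division of their reads is uncertain.

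Among the large chaperones, several of the cytosol rose more in the mutant and several of the organelles rose less, a grouping made after the values were seen. The difference was higher in 14 of 26 and lower in 10, against 20.6% and 56.3% of all genes. Its median of 0.31 lay 0.86 above that of all genes. After median-of-ratios scaling 17 were higher and 4 lower. HSP101, the cytosolic disaggregase of thermotolerance, was at 3.7, 3.6 and 4.51 TPM in WT control and 119, 107 and 106 at 3 days, against 3.51, 3.66 and 3.65 in mutant control and 236, 275 and 279.9 at 3 days. The 3 day groups did not overlap, with the mutant higher, and the difference was 1.34 ± 0.12. HSP70B (1.17 ± 0.2), HSP90.1 (1.03 ± 0.15) and HSP90.2 (1.15 ± 0.091), all cytosolic, also had a stronger rise in the mutant, with HSP90.2 to HSP90.4 being near-identical copies. HSP90.5, of chloroplasts, was at 151, 152 and 145 TPM in WT control and 707, 769 and 842 at 3 days, against 190.5, 218 and 213 in mutant control and 113, 128 and 129.7 at 3 days. It rose in WT and fell in the mutant, a difference of -3.10 ± 0.11. CLPB3, the chloroplast disaggregase, rose from 33.8 to 173 TPM in WT with no called response in the mutant (-2.22 ± 0.077), and HSP90.6, of mitochondria, had a weaker rise in the mutant (-1.84 ± 0.077).

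**Figure D4:**
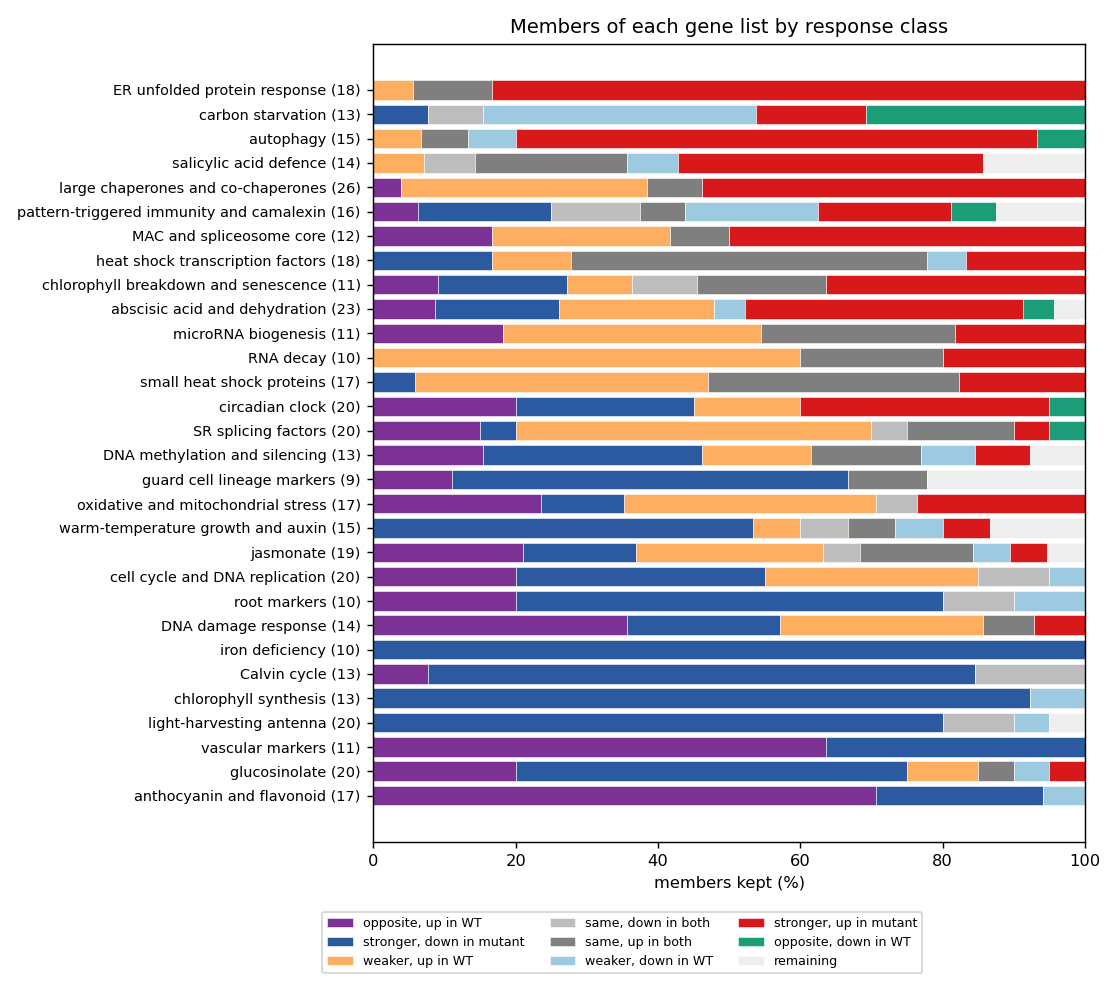
Share of the tested members of 30 gene lists (horizontal axis, percent; number tested in parentheses) in each response class, ordered by median difference. ER unfolded protein response genes were mostly in the stronger rise, iron deficiency and chlorophyll synthesis genes in the stronger fall, and anthocyanin and vascular genes in the rise in WT with a fall in the mutant.

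Genes of RNA processing were found in several classes. Of 12 MAC and spliceosome core genes, both targeted genes included, 6 members had a higher and 5 a lower difference, and their median was 0.11, or 0.67 above that of all genes. MAC5A, an RNA-binding member of the MAC, was at 32.8, 29.4 and 34.0 TPM in WT control and 47.3, 44.5 and 43.5 at 3 days, against 48.0, 47.5 and 47.7 in mutant control and 113, 132 and 122 at 3 days. It rose in both genotypes, with the mutant 3 days libraries highest, and the difference was 0.86 ± 0.091. PRL2, a WD40 protein of the MAC, had a difference of 0.72 ± 0.12. The difference was lower in 14 of 20 SR splicing factors and higher in 2, but 8 were higher and 8 lower after median-of-ratios scaling, and the median of -0.54 lay 0.02 above that of all genes. SR34A had the most negative difference (-1.34 ± 0.085; median-of-ratios -0.71), and RS40, at 63.0 TPM in WT control and 40.0 at 3 days, against 49.2 in mutant control and 85.5 at 3 days, fell in WT and rose in the mutant (1.43 ± 0.081). Among 11 microRNA biogenesis genes 2 were higher and 6 lower, shares near those of all genes (20.6% and 56.3%), or 7 and 3 after median-of-ratios scaling. AGO1, which binds microRNAs, was at 74.0, 70.5 and 75.3 TPM in WT control and 103, 101 and 102 at 3 days, against 62.0, 65.0 and 65.0 in mutant control and 30.1, 31.2 and 29.9 at 3 days. It was lowest in mutant 3 days, with a difference of -1.52 ± 0.055, and its called rise in WT under TPM was not a rise after median-of-ratios scaling. In RNA decay, 2 of 10 were higher and 6 lower, also near the shares of all genes, or 4 and 2 after median-of-ratios scaling. UPF1, a helicase of nonsense-mediated decay, rose in WT with no called response in the mutant (-1.37 ± 0.056), and DCP1, of mRNA decapping, had a stronger rise in the mutant (0.85 ± 0.1).

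Clock genes were found on both sides, with the difference lower in 12 of 20 and higher in 8, against 56.3% and 20.6% of all genes, and lower in 7 and higher in 9 after median-of-ratios scaling. LHY, a morning factor, was at 4.63, 3.62 and 4.22 TPM in WT control and 9.26, 8.9 and 9.8 at 3 days, against 35.2, 35.1 and 33.2 in mutant control and 9.16, 7.45 and 8.18 at 3 days. Mutant control was the high group, and the difference was -2.95 ± 0.12. RVE8, another morning factor, was at 6.10 TPM in WT control and 11.6 at 3 days, against 23.8 in mutant control and 1.43 at 3 days (-4.22 ± 0.23), and CCA1 at 14.2 TPM in WT control and 14.3 at 3 days, against 58.3 in mutant control and 10.5 at 3 days (-2.38 ± 0.11). PRR5, an afternoon repressor, was at 29.3, 29.0 and 31.4 TPM in WT control and 22.8, 23.9 and 28.1 at 3 days, against 6.6, 6.21 and 7.34 in mutant control and 44.1, 46.7 and 45.9 at 3 days. It was low in mutant control and high in mutant 3 days, with a difference of 2.85 ± 0.11. The evening genes LUX (1.85 ± 0.16) and ELF4 (1.52 ± 0.17) had a stronger rise in the mutant, and TOC1, also an evening gene, a weaker one (-0.74 ± 0.087) that was no longer called different after median-of-ratios scaling. The hour of sampling is not given in the sources used here, and its part in the clock genes was not tested.

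Hormone and defence genes were mixed, and the counts in each list are to be read against the 56.3% of all genes with a lower and 20.6% with a higher difference. Of 19 jasmonate genes, 2 were higher and 12 lower, a share near that of all genes, with a median difference 0.57 below that of all genes. VSP2, a storage protein induced by jasmonate, was at 6.24, 7.19 and 6.06 TPM in WT control and 50.7, 73.8 and 40.5 at 3 days, against 9.23, 9.85 and 8.98 in mutant control and 2.23, 7.3 and 3.18 at 3 days. WT 3 days was the high group, and the difference was -3.96 ± 0.41. AOS, an enzyme of jasmonate synthesis, fell from 73.4 to 5.45 TPM in the mutant (-3.28 ± 0.12), whereas JAZ1, a repressor of the pathway, had a stronger rise there (1.27 ± 0.3). Of 23 abscisic acid and dehydration genes, 11 were higher and 11 lower: RD29A rose in the mutant with no called response in WT (a fall after median-of-ratios scaling), at 24.6 TPM in WT control and 25.97 at 3 days, against 16.1 in mutant control and 159 at 3 days (3.15 ± 0.11), and RD29B rose more in WT, at 0.177 TPM in WT control and 27.3 at 3 days, against 0.857 in mutant control and 4.66 at 3 days (-2.96 ± 0.2). Among 16 genes of pattern-triggered immunity and camalexin, 7 were higher and 5 lower, with WRKY33, a regulator of camalexin, at 2.02 ± 0.2, the pattern receptor FLS2 at 1.95 ± 0.22 and the oxidase RBOHD at -1.33 ± 0.17. Of 17 genes of oxidative and mitochondrial stress, 4 were higher and 12 lower. UPOX, a mitochondrial stress marker, was at 6.96, 7.58 and 7.07 TPM in WT control and 527, 529.9 and 482 at 3 days, against 74.4, 67.0 and 70.4 in mutant control and 810.1, 815 and 755 at 3 days. The mutant was higher than WT at both sampling points, and the difference was -2.50 ± 0.078. CAT1, a catalase, rose in the mutant with no called response in WT, or a fall after median-of-ratios scaling (2.59 ± 0.11), and FSD2, a chloroplast superoxide dismutase, fell there (-2.48 ± 0.15).

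Among genes of growth at warm temperature and auxin the difference was lower in 9 of 15 and higher in 2, shares near those of all genes (56.3% lower and 20.6% higher). EXPA8, an expansin that loosens the cell wall, was at 59.9 TPM in WT control and 3.24 at 3 days, against 146 in mutant control and 0.08 at 3 days (-3.24 ± 0.11), and PIF1, a light-signalling factor, at 18.4 TPM in WT control and 13.6 at 3 days, against 18.9 in mutant control and 1.54 at 3 days (-2.56 ± 0.12). YUC8, an auxin synthesis enzyme, had a higher difference of 1.24 ± 0.13. In chlorophyll breakdown and senescence, 4 of 11 were higher and 4 lower: PAO, the oxygenase that opens the chlorophyll ring, had a difference of 1.62 ± 0.13, and the senescence factors NAC092 and WRKY53 of 2.15 ± 0.3 and -1.58 ± 0.21. Markers of tissues were counted in the same way. The difference was lower in 8 of 10 root markers and higher in 1, with a median 0.94 below that of all genes, and CASP1, of the endodermis, was at 37.9 TPM in WT control and 10.5 at 3 days, against 35.9 in mutant control and 1.44 at 3 days. The summed level of the root markers was 2602 to 3004 TPM in WT control and 198.3 to 282.2 at 3 days, against 1788 to 2012 in mutant control and 46.91 to 64.54 at 3 days, most of it from PYK10, a root beta-glucosidase. The difference was lower in 6 of 9 guard cell lineage markers, against 56.3% of all genes, and 1 of the 9 kept its class under the 3 scalings, with a median 0.37 below that of all genes (after quantile normalization the median difference was -0.04) and EPF2, a signal of the early lineage, at 11.8 TPM in WT control and 7.90 at 3 days, against 11.4 in mutant control and 0.94 at 3 days. Of the 3 seed markers tested, SESA1 rose more in WT (-2.20 ± 0.46) and CRA1 more in the mutant (1.70 ± 0.25). Guard cell lineage markers summed to 77.34 to 83.75 TPM in WT control and 61.04 to 63.33 at 3 days, against 73.69 to 86.91 in mutant control and 38.24 to 42.47 at 3 days. The part of tissue proportions in the difference of responses was not tested.

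**Figure D5:**
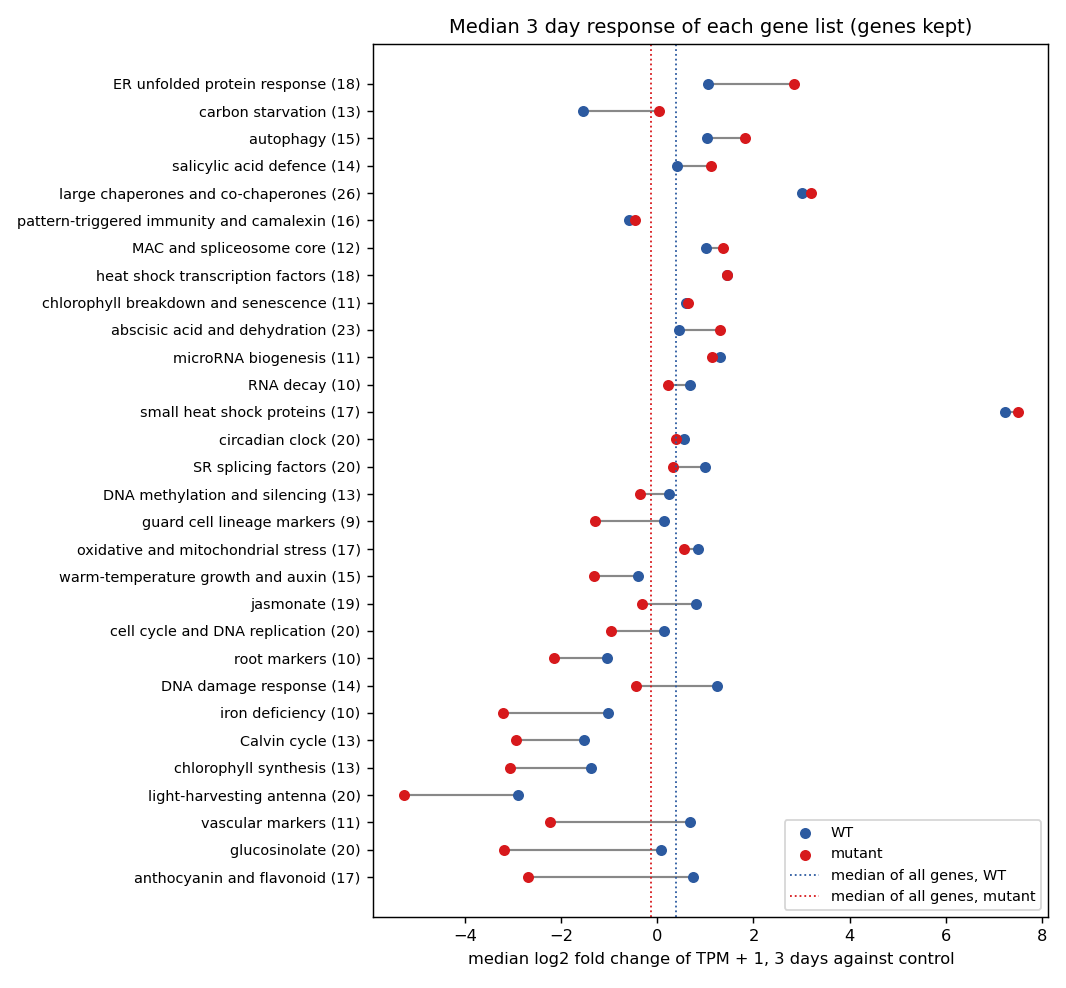
Median response of each gene list in WT and in the mutant (horizontal axis, log2 fold change of TPM + 1; number of genes tested in parentheses), ordered by median difference, with dotted lines for the medians of all genes. The mutant lies right of WT for the ER unfolded protein response and carbon starvation and left of it for anthocyanin, glucosinolate and vascular genes.

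The genotypes differed more often at 3 days than at control. Mutant and WT differed in 11116 genes (49.5%) at control and in 18588 (82.8%) at 3 days by the same fit. Of the genes that rose in WT and fell in the mutant, 98.05% differed at 3 days and 57.62% at control, with median differences of mutant and WT of -1.37 and 0.21. Of those with a stronger fall in the mutant, 94.80% differed at 3 days and 48.64% at control, with medians of -1.31 and 0.02. For the stronger rise the shares were 93.77% and 48.91%, with medians of 0.89 and 0.05. The weaker fall was the class with more genes that differed at control (75.47%) than at 3 days (62.34%). These comparisons use the libraries that sorted the classes and are descriptions.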

How the data were processed

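RNA was measured in 12 libraries of seedlings, 3 in each of 4 groups taken from the sample titles. Per the labels' protocols, total RNA was enriched with oligo dT before library preparation (Illumina TruSeq). RSEM and TAIR10 are named in the submitters' processing notes, while versions, filters and the strand setting are not stated there. A single table of TPM values per gene and library was deposited by the authors. TPM gives no depth, so counting error and detection floors are unknown. A rise of abundant RNAs lowers all other values of a library, RSEM divides reads between near-identical copies, and without a known strand setting overlapping and antisense genes cannot be told apart.

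Symbols were taken by locus from a RefSeq gene table, in which 37572 loci matched and 10545 carried a symbol, and 7082 genes were 0 in all libraries. Genes that reached 1 TPM in 3 or more libraries were kept, and limma 3.58.1 in R 4.3.3 was fitted to log2(TPM + 1) with 1 mean per group over all 12 libraries and an intensity trend. Fold changes on this scale understate those of low genes. Benjamini-Hochberg adjustment ran over the 22462 genes, with calls at an adjusted p under 0.05. With 3 against 3 libraries the smallest two-sided p of an exact test is 0.1, so the spread was pooled across genes. The fit was tested on simulated data. The labels share replicate numbers 1 to 3, but same-numbered libraries did not deviate together (r of -0.0961 to 0.0772 over 18 pairs), so the numbers were not taken as pairs.

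The named genes are MAC3A and MAC3B, the 5 largest differences per class and direction (4 for the same class) among genes with a symbol, a mean of at least 5 TPM in the highest group and no overlap of control and 3 days, and per list the 2 largest called differences in each direction. Further list members are given as examples and were chosen after their values were seen. The gene lists, the comparison and its members were chosen with earlier results of these data known. KEGG pathways of the table with at least 20 genes kept were counted by class, without a test. Alternatives were 2 other pseudocounts (0.1 and 5), 2 other filters, 2 scalings, leaving out ribosomal RNA and organelle-encoded loci, a replicate block, no trend and leaving out each library. Promoter sequences were not used here.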

Additional observations from a re-analysis of the deposited data

Results flagged for a closer look

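The responses of the genotypes differed by limma's test of the difference itself in 17277 genes, which is the comparison described above. Listed here are the 10 named genes that were picked for the largest differences in the classes of opposite responses. Other named genes, MAC3A among them, also moved in opposite directions in the 2 genotypes. GBSS1 (-6.75), DFR (-6.61), TLL1 (-6.49), LDOX (-6.20) and scpl10 (-5.65) rose in WT and fell in the mutant. TPS11 (4.58), LTI30 (4.03), PLA2A (3.92), TPS9 (3.66) and PUP18 (3.50) fell in WT and rose in the mutant. The values are differences of the responses on the log2(TPM + 1) scale. These genes were picked as the largest of their class, so their size is a description. In all 10 the difference kept its sign and its call under every alternative run.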

How the results depend on the processing

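Scaling moved the class sizes most, and TPM holds no depth by which to choose a scale. Class was shared with the TPM result in 58.4% of genes after median-of-ratios scaling, 52.8% after quantile normalization, 94.5% with either other pseudocount, 97.4% without a filter, 99.6% with the filter of 5 TPM, 98.0% without the trend and 93.9% to 95% with 1 library left out. With the replicate block, 17199 differences were called and 97.1% of genes kept their class. It lost the call of 1 of 133 named genes, U1.7. Median-of-ratios scaling gave 8262 genes with a higher difference, against 4620. It gave 2057 with the same fall, 2087 with a weaker rise, 1656 with a weaker fall, 1182 that rose in WT and fell in the mutant and 1337 of the reverse. Among differences of at least 2-fold it gave 798 with a weaker rise (1597 with TPM), 455 with a weaker fall (219), 2544 with a stronger rise (1365), 907 that rose in WT and fell in the mutant (2392) and 902 of the reverse (238). Quantile normalization gave 8319 genes higher and 7800 lower. Its classes held 2272 with the same fall, 2349 with a weaker rise, 2027 with a weaker fall, 1225 that rose in WT and fell in the mutant and 1247 of the reverse. At 2-fold they held 792 with a weaker rise, 634 with a weaker fall, 2208 with a stronger rise, 2114 with a stronger fall (3614 with TPM), 880 that rose in WT and fell in the mutant and 812 of the reverse. These scalings centre the median difference near 0, from -0.55, by their construction. A pseudocount of 5, which shrinks folds, left 738, 119, 901 and 1854 genes at 2-fold in the weaker rise, weaker fall, stronger rise and stronger fall. The filter of 5 TPM, which tests fewer genes, left 793 with the same fall. With 1 library left out, 4434 to 4617 genes were higher and 12285 to 12685 lower.

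Over 133 named genes and 21 settings, 2715 of 2784 values kept direction and side of the threshold, 39 lost the call, 17 gained it and 13 changed sign. The sign changes were of MAC5C with a pseudocount of 0.1 (-0.66) and without WT control replicate 3 (-0.06) or mutant control replicate 2 (-0.08), and SRO3 with a pseudocount of 5 (1.06), median-of-ratios (0.54), quantile (0.18) and without mutant control replicate 2 (0.16). SRO3 was called at a pseudocount of 5 (limma, adjusted p = 4.52e-06), at 0.1 in the other direction (-1.29, adjusted p = 0.000493) and after median-of-ratios scaling (adjusted p = 0.0247). With 1 library left out, MAC5C ranged from -0.08 to 0.18 and SRO3 from -0.21 to 0.16. HSP18.5 (0.48, adjusted p = 0.000279), CRT3 (0.12) and ATG5 (0.33) changed sign with median-of-ratios scaling, and ATG5 (0.24), PSAF (-0.01) and PSAE-1 (-0.15) with quantile normalization. The cause was not tested.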

Other observations

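The broad functional categories of the deposited annotation spread unevenly over the classes under TPM. They were counted after the values were seen, and only part of them is given. Of 495 genes of replication, recombination and repair, 34.7% had a weaker rise in the mutant, as did 23.0% of 806 genes of translation and ribosome structure, against 18.0% of all genes. Median-of-ratios scaling lowered these counts from 172 to 98 and from 185 to 97, against 9.29% of all genes. A stronger rise was found in 39.1% of 115 genes of RNA processing and modification, 26.9% of 886 genes of intracellular trafficking and 24.4% of 1663 genes of protein turnover and chaperones, against 15.9% of all genes. A stronger fall was found in 39.2% of 834 genes of carbohydrate metabolism and 37.0% of 506 of amino acid metabolism, against 25.1%. Genes that rose in WT and fell in the mutant made up 23.0% of 148 defence genes and 21.8% of 326 genes of secondary metabolism, against 13.0%. Here median-of-ratios scaling lowered the counts from 34 to 16 and from 71 to 37, against 5.26% of all genes. In the KEGG annotation 12 of 31 genes (38.7%) of GPI-anchor synthesis, which tethers proteins to the outer membrane surface, rose in WT and fell in the mutant under TPM.

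Of 875 long non-coding RNA genes tested, 363 (41.5%) had no pattern of calls that sorted them, against 7.57% of all genes, and 147 (16.8%) had a stronger fall in the mutant, against 25.1%. Coding genes made up 96.14% of the genes that rose in WT and fell in the mutant and 86.04% of those with a weaker rise, against 91.2% of all genes tested. The weaker rise also held 321 of 458 pseudogenes and 313 of 431 transposable element genes. Of those 431, 214 passed the filter through the WT 3 days libraries alone, so the 86.04% cannot be told apart from an effect of the filter.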
